A study of Mus musculus with 6 samples.

Results

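Glycolysis turns glucose into pyruvate in a fixed order of enzymes, and the transcripts of many of these enzymes are raised by the hypoxia-inducible factors, HIF, when oxygen is scarce. HIF pairs an oxygen-sensitive alpha subunit, encoded by Hif1a or Epas1, with a stable partner, and prolyl hydroxylases of the Egln family mark the alpha subunit for destruction while oxygen is plentiful. In the developing kidney, nephron progenitors are known to rely on glycolysis, whereas the mature proximal tubule oxidises fuel and makes glucose. The set described here holds 35 genes of glycolysis and of the hypoxia response, chosen by name for their pathway and found on the array by RefSeq accession, out of 15234 named genes measured. Earlier results of these data were known when the genes were chosen. Each gene was represented by its brightest probe, and all 35 were well above background on all 6 arrays, so that none was lost to the filter on dim signals and none had a saturated spot.

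Sall1 encodes a zinc finger protein that nephron progenitors need for their upkeep. Kidneys of mouse embryos at E14.5, of a mixed 129 and C57BL/6 background, were hybridised to 6 one-colour arrays in 4 groups. The Six2Cre knockouts (titles KO7 and KO9) carried floxed Sall1 deleted in nephron progenitors by Cre under Six2, and the Six2Cre controls (WT5 and WT2) are labelled control. The inducible knockout (CreER/flox5) came from a line named Sall1CreERfSall1 and was taken 48 hours after tamoxifen at E12.5, and its control is titled wt/flox2. Which part of Sall1 was floxed, whether Six2Cre controls carried Cre and how many kidneys went into an array were not stated in the labels. The titles name no Six2Cre line, so membership of a line rests on how they are written and on the design text. A description shared by all 6 samples mentions tamoxifen, so whether the Six2Cre embryos also received it is not settled. CreER is named for the inducible knockout alone, so its presence and the loss of Sall1 cannot be told apart in that pair. Separate embryos are not stated for the arrays, and the p values therefore measure the spread between these samples, which may be technical.

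Six2Cre knockout 7 and control 5 shared slide 1, and the other 4 arrays shared slide 2, so each knockout was read against a control of its own slide. The targeted gene, Sall1, was lower in every knockout, with log2 differences of -1.27 and -1.23 in the Six2Cre pairs and -2.78 in the CreER pair (Six2Cre limma adjusted p = 0.159). Fewer probes were well above background on the CreER knockout array (71.6%) than on the other arrays (79.9% to 82.9%), and its negative control spots varied more (SD 4.01, against 1.46 to 1.61). As markers of embryonic kidney, the progenitor factor Six2 and the proximal tubule transporter Slc34a1 were well above background on all 6 arrays. Six2Cre control 2 stood apart in muscle transcripts: the summed signal of 10 markers of skeletal muscle was 5.11 there on the log2 scale, against 0.32 to 0.61 on the Six2Cre knockout arrays, 1.47 on the CreER knockout array, 0.26 on Six2Cre control 5 and 0.0554 on the CreER control array. Levels below are log2 signal relative to the 75th percentile of the array, and differences are knockout minus control on that scale. The number of arrays limits the precision.

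No gene of the set differed by as much as 2-fold between knockout and control in any of the 3 pairs. The widest gaps were 1.58-fold for Bnip3 in the slide 1 Six2Cre pair, 1.93-fold for Hk2 in the slide 2 Six2Cre pair and 1.77-fold for Slc16a3 in the CreER pair. Gaps of at least 2-fold were found for 11.2% and 8.36% of all features in the Six2Cre pairs. In the CreER pair they were found for 3.59% of the 25924 features well above background on at least 1 of its arrays. In the Six2Cre comparison (n = 2 arrays a group, slide as a block), 0 of the 35 passed limma with Benjamini-Hochberg adjustment over all 26393 features, with adjusted p from 0.33 to 0.992. No feature of the whole table passed either (0%). At an unadjusted p under 0.05 there were 2 of 35 (5.71%), against 11.6% of all features. These were Hk2, lower (4.55% of all features were), and Ddit4, higher (7.04% of all features were). With eBayes trend and robust, 0 of 35 passed where 2.38% of all features did. A fit of genotype over the 3 pairs also called 0 of 35 and 0% of all features, with 4 of 35 (11.4%) at an unadjusted p under 0.05 against 9.7% of all. The 95% interval of the Six2Cre difference lay within 2-fold either way for 28 of the 35 genes. In bulk tissue, fewer cells of a type and less RNA per cell cannot be told apart.

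**Figure D1:**
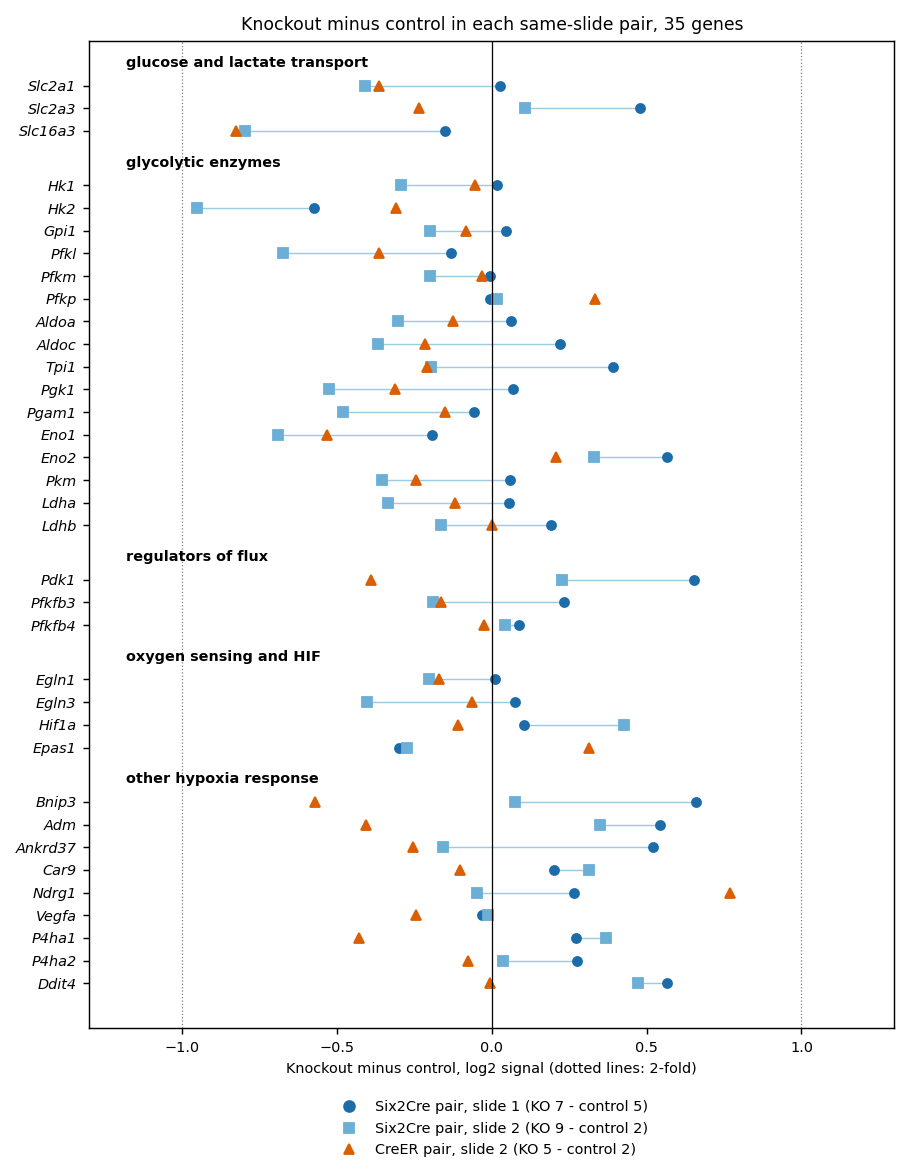
Each point is the knockout minus control difference of 1 gene in 1 same-slide pair (x axis, log2), with genes grouped by role down the page, circles and squares for the Six2Cre pairs and triangles for the CreER pair. No point reaches the dotted lines at 2-fold; 30 of the 35 triangles lie left of 0.

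The direction of the small differences was not the same in the 3 pairs. Counts by direction were not planned in advance. Knockout signal was below control for 9 of 35 genes in the slide 1 Six2Cre pair (25.7%; 47.8% of all features), for 23 of 35 in the slide 2 Six2Cre pair (65.7%; 41.9% of all features) and for 30 of 35 in the CreER pair (85.7%; 51.1% of all features). The medians of the set were 0.074, -0.20 and -0.16 in the same order, beside 0.020, 0.066 and -0.0054 over all features. In the Six2Cre mean 17 genes were above 0 and 18 below, with a median of -0.022 over the set. Of the 35, 7 were lower in all 3 pairs (Eno1, Hk2, Pfkl, Pfkm, Pgam1, Slc16a3 and Vegfa), which is 20% against 14.3% of all features, and Eno2 alone was higher in all 3, where 20% of all features were.

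The consensus core of the HIF binding site is ACGTG. Of the 32 genes of the set with a window in the RefSeq promoter table (GRCm38.p6, from 250 bases before to 50 after the start), 22 (68.8%) held ACGTG on one strand or the other in at least 1 window, against 21.8% of 27025 genes. Per window the shares were 54.3% of 46 and 19.6% of 32851. The related core GCGTG, searched on both strands, with matches that can share bases with those of ACGTG, was held by 21 of 32 genes (65.6%) and by 35.2% of all genes. A match is a description of the letters, not a binding site. The set was chosen by pathway, and the genes it is set against were not matched for expression or base composition. The 22 genes with ACGTG had a median Six2Cre difference of -0.10 (from -0.76 to 0.52) and the 10 without had 0.040 (from -0.44 to 0.45), and these ranges overlap. The promoters of 4 genes that carry the core are shown. Hk2 (chr6:82774405-82774704, minus strand) and Slc16a3 (chr11:120948817-120949116, plus strand) were the lowest of the set in the Six2Cre comparison, and Ddit4 (chr10:59951721-59952020, minus strand) was the highest. Bnip3 (chr7:138909457-138909756, minus strand) had the widest gap of the slide 1 pair. Eno1 (-0.44), Eno2 (0.45), Adm (0.45), Pdk1 (0.44) and Pfkl (-0.40) lay further from 0 than Bnip3 (0.37) in the Six2Cre comparison and held no ACGTG. Capitals mark ACGTG or its reverse complement CACGT, and in Bnip3 a match on each strand overlaps in 1 palindrome. No window was used for Slc2a3, Epas1 and Ndrg1.
Hk2: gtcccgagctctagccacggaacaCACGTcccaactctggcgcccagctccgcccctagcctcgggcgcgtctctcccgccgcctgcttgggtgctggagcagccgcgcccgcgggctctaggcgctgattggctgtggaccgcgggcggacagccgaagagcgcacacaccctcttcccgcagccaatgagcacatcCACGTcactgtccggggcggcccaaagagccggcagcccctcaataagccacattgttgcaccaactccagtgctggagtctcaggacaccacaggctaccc
Slc16a3: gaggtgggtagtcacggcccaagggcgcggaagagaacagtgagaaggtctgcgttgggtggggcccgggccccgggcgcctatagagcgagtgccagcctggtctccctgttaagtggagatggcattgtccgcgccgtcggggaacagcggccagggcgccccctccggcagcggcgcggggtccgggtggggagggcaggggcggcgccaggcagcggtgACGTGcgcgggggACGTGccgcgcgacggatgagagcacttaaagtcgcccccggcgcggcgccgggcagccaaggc
Ddit4: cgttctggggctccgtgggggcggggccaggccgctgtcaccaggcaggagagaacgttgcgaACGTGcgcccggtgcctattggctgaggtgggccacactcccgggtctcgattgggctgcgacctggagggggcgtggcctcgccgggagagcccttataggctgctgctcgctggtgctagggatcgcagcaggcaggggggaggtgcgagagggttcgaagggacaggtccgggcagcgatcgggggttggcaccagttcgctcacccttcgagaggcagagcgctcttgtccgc
Bnip3: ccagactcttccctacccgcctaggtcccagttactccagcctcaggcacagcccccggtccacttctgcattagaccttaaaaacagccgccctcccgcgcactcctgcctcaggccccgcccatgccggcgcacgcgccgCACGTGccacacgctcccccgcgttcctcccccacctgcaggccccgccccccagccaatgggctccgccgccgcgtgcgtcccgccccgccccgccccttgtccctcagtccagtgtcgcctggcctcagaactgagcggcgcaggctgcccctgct

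Of the transporters, Slc16a3, which encodes the lactate exporter MCT4, was lower in each knockout. Its level was 1.73 on Six2Cre knockout 7 against 1.88 on control 5, 1.24 on Six2Cre knockout 9 against 2.04 on control 2, and 1.83 on the CreER knockout against 2.66 on its control. All 3 knockout arrays lay below all 3 control arrays. The Six2Cre difference was -0.47 (SE 0.24, limma adjusted p = 0.581), and over the 3 pairs it was -0.59 (SE 0.19, adjusted p = 0.465). Slc2a1, which encodes the glucose transporter GLUT1, had 0.027 and -0.41 in the Six2Cre pairs and -0.36 in the CreER pair. Slc2a3, which encodes the high-affinity transporter GLUT3, had 0.48 and 0.11 in the Six2Cre pairs and -0.23 in the CreER pair. Neither transporter had 1 direction in all 3 pairs.

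Hk2, the inducible hexokinase that traps glucose in the cell, had the lowest p of the set. It stood at 1.56 and 0.99 on Six2Cre knockouts 7 and 9, against 2.14 and 1.94 on controls 5 and 2. It stood at 1.61 on the CreER knockout, against 1.92 on its control. Every knockout array was below every control array. The Six2Cre difference was 1.70-fold lower (log2 -0.76, SE 0.20, 95% interval -1.34 to -0.18) and did not pass (limma adjusted p = 0.33, and 0.0632 with trend and robust). Over the 3 pairs it was -0.61 (SE 0.17, adjusted p = 0.442). Hk1, the hexokinase of most tissues, differed by -0.14 (SE 0.19), and its 4 probes above the filter gave -0.20 to -0.11.

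Next in the pathway, the phosphofructokinases set the pace of glycolysis. Pfkl, the liver-type subunit, was 1.58 and 1.97 on Six2Cre knockouts 7 and 9 against 1.71 and 2.64 on controls 5 and 2, and the CreER pair differed by -0.36. Its Six2Cre difference of -0.40 (SE 0.22) did not pass (limma adjusted p = 0.604), and the level on slide 2 was above that on slide 1 by 0.39 in Six2Cre knockouts and by 0.93 in Six2Cre controls. Pfkm, the muscle-type subunit, differed by -0.10 (SE 0.18) and Pfkp, the platelet-type subunit, by 0.0069 (SE 0.17).

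The enolase isoforms had values of opposite sign. Eno1, the ubiquitous enolase, was 1.73 and 1.62 on Six2Cre knockouts 7 and 9 against 1.92 and 2.31 on controls 5 and 2, and 2.22 on the CreER knockout against 2.75 on its control. Its difference was -0.44 (SE 0.22, limma adjusted p = 0.566) in the Six2Cre comparison and -0.47 (SE 0.15, adjusted p = 0.465) over the 3 pairs. Eno2, the enolase of neurons, was -1.35 and -0.80 on Six2Cre knockouts 7 and 9 against -1.91 and -1.13 on controls 5 and 2, and -0.58 on the CreER knockout against -0.78 on its control. It was the only gene of the set above its control in each pair, by 0.45 (SE 0.18, limma adjusted p = 0.5) in the Six2Cre comparison and 0.37 (SE 0.13, adjusted p = 0.504) over the 3 pairs. Its second probe gave 0.46, close to the first. The SD of its level was 0.38 in Six2Cre knockouts and 0.55 in Six2Cre controls (n = 2 each).

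For the remaining enzymes no difference was detectable with this number of arrays. Aldoa (aldolase A), Tpi1 (triose phosphate isomerase), Pgk1 (phosphoglycerate kinase), Pgam1 (phosphoglycerate mutase), Pkm (pyruvate kinase M), Ldha and Ldhb (lactate dehydrogenase subunits), Gpi1 (glucose phosphate isomerase) and Aldoc (aldolase C) had Six2Cre differences between -0.27 and 0.098. Ldha, which makes lactate from pyruvate, had 5.75 and 5.72 on Six2Cre knockouts 7 and 9 against 5.69 and 6.06 on controls 5 and 2, and 6.14 on the CreER knockout against 6.26 on its control. Its Six2Cre interval of -0.73 to 0.44 excludes a 2-fold change in either direction. The second Ldha probe gave -0.28, against -0.14 for the first.

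Across the 16 enzymes, 12 were lower in the Six2Cre mean, with a median of -0.13, as were 12167 of all 26393 features. The slide 1 pair had 6 lower of 16 (median 0.050), the slide 2 pair 14 of 16 (median -0.32) and the CreER pair 13 of 16 (median -0.14). Of all features, 47.8%, 41.9% and 51.1% were lower in the same order. These counts by direction were not planned in advance. Control 2, the control of the slide 2 pair, was the array rich in muscle transcripts, and all 10 muscle markers were lower in the knockout of that pair (median -4.63), with medians of 0.42 for the slide 1 pair and 1.34 for the CreER pair. Without control 2 the Six2Cre count was 7 of 16 lower, in a fit without the slide block (a count added after seeing the data). That fit set knockouts of both slides against control 5 of slide 1 alone, so slide and control cannot be told apart in it. Over the fits with 1 Six2Cre array left out, the count ran from 7 to 14. The part of the muscle transcripts in this count was not tested. The 20 genes of the respiratory chain and citric acid cycle, as a gauge of mitochondria, had 4 of 20 lower in the slide 1 pair, 16 of 20 in the slide 2 pair and 3 of 20 in the CreER pair, with medians of 0.12, -0.11 and 0.061 and 0 of 20 called.

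**Figure D2:**
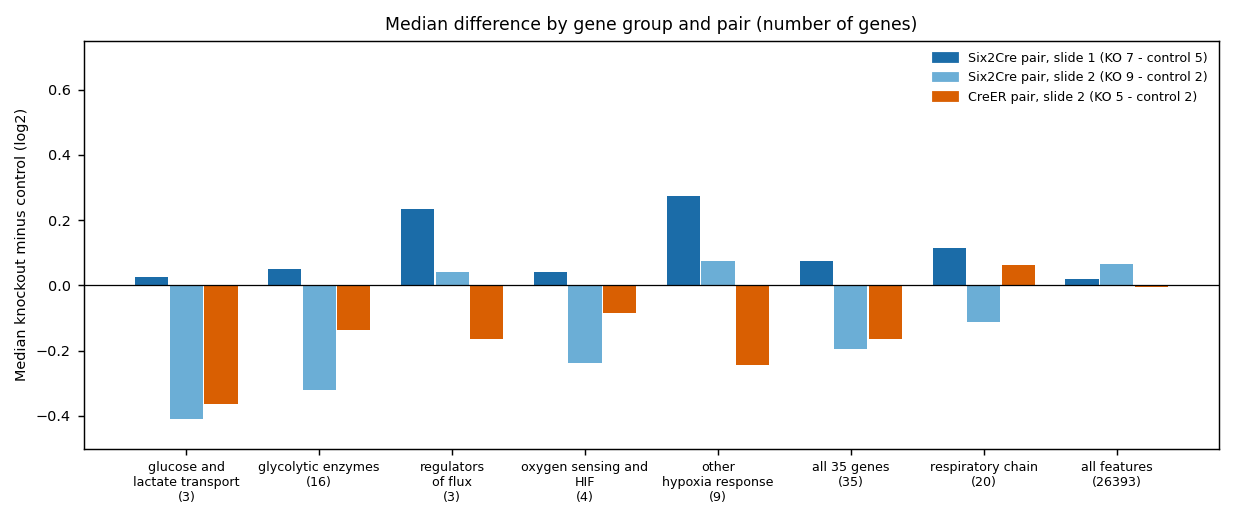
Bars give the median knockout minus control difference (y axis, log2) of each group of genes in the 3 pairs, with the number of genes in brackets, the respiratory chain list for comparison and all features at the right. The 16 glycolytic enzymes sit at 0.050, -0.32 and -0.14 and the 9 other hypoxia response genes at 0.27, 0.075 and -0.24 in the slide 1 Six2Cre, slide 2 Six2Cre and CreER pairs.

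The set holds 3 regulators of flux. Pdk1, the kinase that holds pyruvate back from the mitochondria, was 0.95 and 0.10 on Six2Cre knockouts 7 and 9 against 0.29 and -0.12 on controls 5 and 2, and -0.025 on the CreER knockout against 0.36 on its control. It was thus above its control in both Six2Cre pairs and below it in the CreER pair. Its Six2Cre difference of 0.44 (SE 0.21, limma adjusted p = 0.548) and the difference between the lines (-0.83, SE 0.36, limma adjusted p = 0.999) did not pass. Pfkfb3 and Pfkfb4, which make and break the activator of phosphofructokinase, differed by 0.022 (SE 0.20) and 0.066 (SE 0.17) in the Six2Cre comparison, although the 2 dimmer Pfkfb3 probes gave -0.18 and -0.15.

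Of the oxygen-sensing genes, Hif1a had the widest spread over arrays, and the spread followed the slide. It was 2.08 on Six2Cre knockout 7 and 1.98 on control 5, the arrays of slide 1. On slide 2 it was 0.50 on Six2Cre knockout 9, 0.20 on the CreER knockout, 0.075 on Six2Cre control 2 and 0.31 on the CreER control. Both slide 1 values thus lay above all 4 slide 2 values, with slide 2 minus slide 1 differences of -1.58 in Six2Cre knockouts and -1.90 in Six2Cre controls. A gap of at least 2-fold between slides in the same direction in both genotypes was found for 1 of 35 genes of the set (2.86%) and 4.26% of all features. Slide and scan batch cannot be told apart. Within the slides Hif1a differed by 0.10, 0.43 and -0.11 in the slide 1 Six2Cre, slide 2 Six2Cre and CreER pairs, and the fit gave 0.26 (SE 0.19, limma adjusted p = 0.674) for Six2Cre.

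Epas1, which encodes HIF-2 alpha, had 2.02 and 2.06 on Six2Cre knockouts 7 and 9 against 2.32 and 2.34 on controls 5 and 2, and 2.51 on the CreER knockout against 2.20 on its control. On this probe both Six2Cre knockouts were below both Six2Cre controls and the CreER pair ran the other way. The second Epas1 probe was far dimmer (mean level -5.69, against 2.24 for the first). It gave -0.23 and 0.076 in the Six2Cre pairs and -0.22 in the CreER pair, so the probes disagreed in direction in the slide 2 pairs. The Six2Cre difference was -0.29 (SE 0.17, limma adjusted p = 0.623). Egln1 and Egln3, the prolyl hydroxylases PHD2 and PHD3, which are themselves HIF targets, differed by -0.097 (SE 0.18) and -0.16 (SE 0.21). Of 9 measured genes of the same machinery outside the set, such as Arnt, the partner of the alpha subunits, 6 were above 0 and 3 below in the Six2Cre comparison, with a median of 0.024 and none called.

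**Figure D3:**
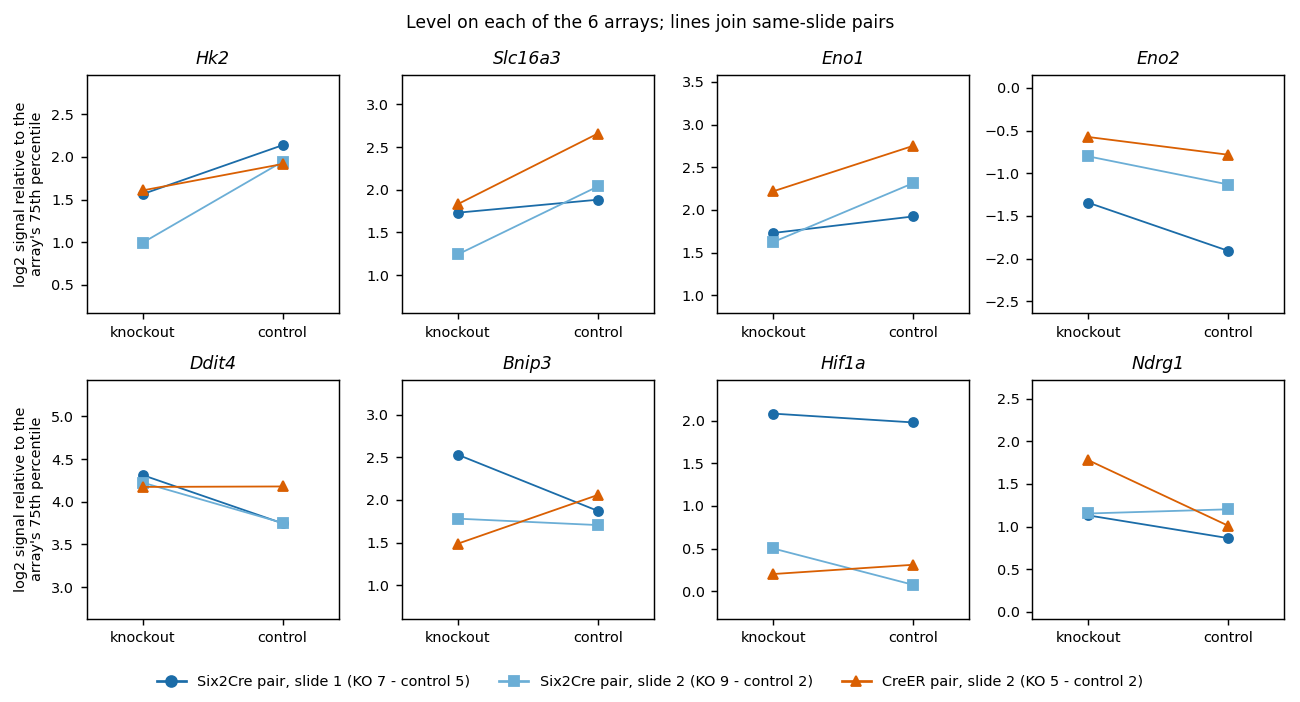
Level on each array (y axis, log2 signal relative to the array's 75th percentile; every panel spans an equal range) for 8 genes, with knockouts at the left, controls at the right and lines joining same-slide pairs. Hk2, Slc16a3 and Eno1 have all 3 lines climbing toward the controls, Ddit4 has both Six2Cre lines descending with the CreER line level, and the slide 1 values of Hif1a (2.08 and 1.98) lie far above the other 4.

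The other hypoxia response genes had Six2Cre values mostly above 0 and CreER values mostly below. In the Six2Cre mean 8 of 9 were above 0 (median 0.26), as were 14226 of all 26393 features. In the CreER pair 8 of 9 were below (median -0.24), against 51.1% of all features. Of these, Ddit4 (-0.0054), P4ha2 (-0.075) and Car9 (-0.10) lay near 0, and with normexp background correction 6 of 9 were below. These counts by direction were not planned in advance. Over the whole set, 10 of 35 genes were above their control in both Six2Cre pairs and below it in the CreER pair (28.6%, against 14.6% of all features). The difference between the lines itself passed limma for 0 of the 35 and for 0% of all features, with 0 of 35 at an unadjusted p under 0.05 against 5.17% of all features. The lone CreER arrays were assumed in that test to vary like the Six2Cre groups.

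Ddit4, an inhibitor of the growth kinase mTOR, was 4.31 and 4.22 on Six2Cre knockouts 7 and 9 against 3.75 on both controls, and 4.17 on the CreER knockout against 4.18 on its control. Both Six2Cre knockouts were above both Six2Cre controls, by 1.43-fold in the mean (log2 0.52, SE 0.17, 95% interval 0.014 to 1.02, limma adjusted p = 0.422). Adm, the gene of the vasodilator peptide adrenomedullin, was -2.18 and -2.17 on Six2Cre knockouts 7 and 9 against -2.73 and -2.52 on controls 5 and 2, and -2.33 on the CreER knockout against -1.93 on its control. It had the lowest p for the difference between lines (-0.85, SE 0.31), which did not pass (limma adjusted p = 0.992).

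Bnip3, a mitophagy receptor, was 2.53 and 1.78 on Six2Cre knockouts 7 and 9 against 1.87 and 1.71 on controls 5 and 2, and 1.49 on the CreER knockout against 2.06 on its control. Its Six2Cre difference of 0.37 (SE 0.23) was unequal between pairs, at 0.66 on slide 1 and 0.075 on slide 2. P4ha1, a subunit of collagen prolyl hydroxylase, had 0.27 and 0.37 in the Six2Cre pairs and -0.43 in the CreER pair, and its second probe gave 0.30, 0.28 and -0.54. P4ha2, its paralog, had 0.27 and 0.037 in the Six2Cre pairs and -0.075 in the CreER pair. None of these passed (limma adjusted p from 0.597 to 0.788 in the Six2Cre comparison).

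Vegfa, the growth factor of blood vessels and a textbook HIF target, had, on its brightest probe, -0.031 and -0.013 in the Six2Cre pairs and -0.24 in the CreER pair. Its Six2Cre interval was -0.52 to 0.48. The 3 dimmer Vegfa probes gave 0.045, -0.21 and -0.41 for the Six2Cre mean, so the probes disagreed in direction. Car9, a carbonic anhydrase that is a sensitive marker of HIF activity, differed by 0.26 (SE 0.17, limma adjusted p = 0.656). Ankrd37, a HIF target, had 0.52 and -0.16 in the Six2Cre pairs and -0.26 in the CreER pair. Ndrg1, a stress-response gene, was 1.13 and 1.15 on Six2Cre knockouts 7 and 9 against 0.86 and 1.20 on controls 5 and 2, and 1.78 on the CreER knockout against 1.01 on its control. It was the only one of the 9 genes above its control in the CreER pair, 1.70-fold, with no replicate to check it.

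In a wider list of 32 HIF targets outside the set, 30 were measured, with 12 above and 18 below 0 in the Six2Cre comparison, a median of -0.12 and none called. In the CreER pair 18 of these 30 were below their control (median -0.081), against 51.1% of all features. None was at least 2-fold apart in the same direction in both Six2Cre pairs or at least 2-fold apart in the CreER pair. Endothelial markers, whose cells respond to Vegfa, had a median of 0.20 in the Six2Cre comparison. Of these, 4 of 5 were above 0, as were 14226 of all 26393 features, and Kdr was below (-0.22). Marker lists that differed in one direction in the Six2Cre mean were those of stroma (6 of 6 higher, median 1.26), macrophages (5 of 5 higher, median 0.83), nephron progenitors (8 of 8 lower, median -1.19) and proximal tubule (8 of 8 lower, median -2.95). Muscle markers were also lower in that mean (10 of 10, median -1.99), but only 3 of 10 were lower in the slide 1 pair. In the CreER pair every measured marker was higher for muscle (median 1.34), erythroid cells (0.81), macrophages (0.34) and neurons (0.25). The lists were chosen with earlier results of these data known. The summed log2 signal of the stromal list was 6.87 to 7.05 on Six2Cre knockouts and 5.96 to 6.21 on Six2Cre controls, and that of the macrophage list was 2.06 to 2.41 on Six2Cre knockouts and 1.32 to 1.70 on Six2Cre controls. For nephron progenitors the sums were 3.50 to 3.56 on Six2Cre knockouts and 4.92 to 5.29 on Six2Cre controls, and for proximal tubule they were 0.0721 to 0.432 on Six2Cre knockouts and 2.67 to 2.69 on Six2Cre controls. The part of these shifts in the values of the 35 genes was not tested.

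Among the wider pathway lists, the widest gaps in the Six2Cre mean were found for genes of glucose handling. Slc2a2, which encodes the glucose transporter GLUT2 of proximal tubule and liver, stood at -4.73 and -5.48 on Six2Cre knockouts 7 and 9 against -1.82 and -2.39 on controls 5 and 2. It was 7.99-fold lower in Six2Cre knockouts (log2 -3.00, SE 0.18, limma adjusted p = 0.0915) and 2.52-fold lower on the CreER knockout array. Fbp1 and Fbp2, fructose bisphosphatases of glucose synthesis, were 2.53-fold lower in Six2Cre knockouts (-1.34, SE 0.21, limma adjusted p = 0.185) and 7.45-fold lower (-2.90, SE 0.39, adjusted p = 0.156), and 0.49 and 0.43 above control in the CreER pair. These 3 genes of the wider pathway lists were at least 2-fold lower in both Six2Cre pairs, as 1.68% of all features were, and no gene of those lists was at least 2-fold higher in both, as 1.54% of all features were. None of the 3 passed over all features in that fit, and all 3 passed with trend and robust (adjusted p from 0.00463 to 0.0435). With normexp background correction the Six2Cre differences were smaller, at -2.09 for Slc2a2 and -1.34 for Fbp2. Of the 35 genes, 0 were at least 2-fold apart in one direction in both Six2Cre pairs.

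Aldoa and Aldoc had Six2Cre intervals of -0.69 to 0.46 and -0.75 to 0.61. The difference between isoforms of the glucose transporters was not tested. Slc2a1 and Slc2a3 had intervals of -0.80 to 0.41 and -0.29 to 0.87, whereas that of Slc2a2 was -3.52 to -2.48. Of 24 other genes of glycolysis, 8 were above 0 and 16 below in the Six2Cre comparison, with a median of -0.094 and none called. Gapdh, the glycolytic enzyme often used as a loading standard, differed by -0.15 (SE 0.20). Pgam2, the phosphoglycerate mutase of muscle, named after its values were seen, had a slide 1 difference of -0.36 and a slide 2 difference of -2.06 in Six2Cre pairs, the second against a control that was the array rich in muscle transcripts. Of 12 measured genes that handle pyruvate at the mitochondrion, such as the pyruvate dehydrogenase subunit Pdha1 (-0.020), 7 were above 0 and 5 below, with none called.

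**Figure D4:**
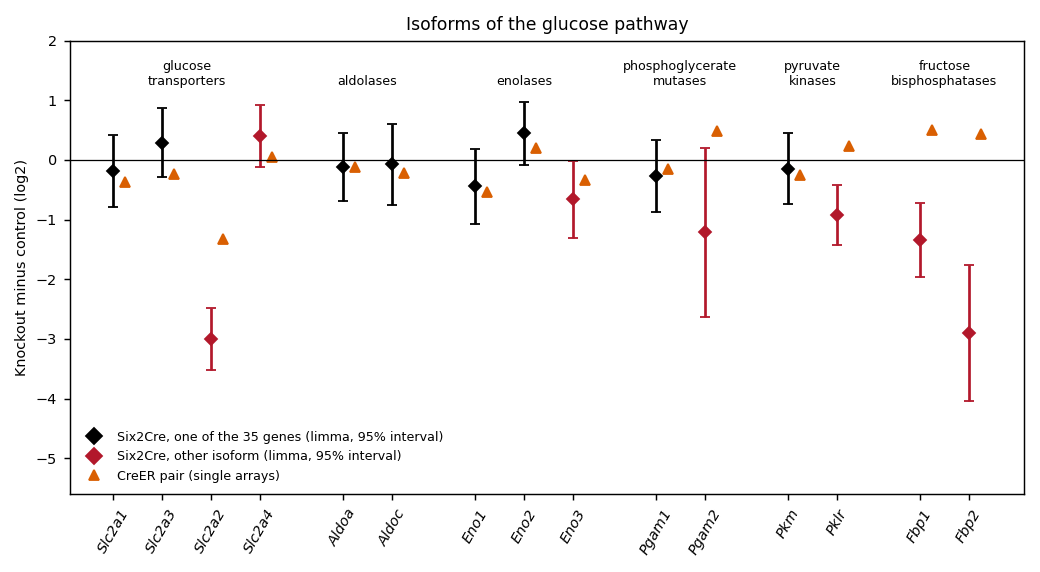
Knockout minus control (y axis, log2) for isoforms of glucose pathway genes: diamonds are Six2Cre differences with 95% limma intervals (black for the 35 genes, red for other isoforms) and triangles the CreER pair, which has no error. The black diamonds lie between -0.44 (Eno1) and 0.45 (Eno2), while Slc2a2 lies at -3.00 and Fbp2 at -2.90.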

How the data were processed

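Cy3-labelled cRNA from total RNA of embryonic kidneys was hybridised to 1-colour Agilent mouse arrays, per the labels' protocols. Per the file headers, the authors used Feature Extraction 10.5.1.1. Its processed signal, as deposited, is a linear intensity from which the scanner software had taken background and spatial trend, array by array, with no scaling across arrays. The deposited table of the whole series repeats this intensity (99.67% of values within a relative tolerance of 0.001).

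Control spots and spots with outlier flags were left out and spots of a probe averaged, which left 40987 of 41174 probes. Probes were named by unversioned RefSeq accession (25097 probes, 17305 genes; reference GRCm38.p6). Each deposited signal was put on the log2 scale and the 75th percentile of its own array subtracted. The brightest probe by mean log2 signal stood for a gene, and features well above background on at least 2 of 6 arrays were kept (26393). Limma 3.58.1 in R 4.3.3 fitted 4 groups with slide as a block (1 residual degree of freedom), and, separately, genotype with the 3 pairs as blocks (2 residual degrees of freedom); tests were two-sided, adjusted over all features at 0.05. The CreER pair alone had no test. Alternatives were the slide block, eBayes trend and robust, quantile normalization, normexp on the median spot and background signals (the files used here have no mean spot signal), mean of probes, the filter, the series table and each array left out.

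The wider lists cover other glycolysis, pyruvate handling, gluconeogenesis (2 of 5 measured above 0, 3 below in Six2Cre knockouts, median -0.33), other HIF targets, HIF machinery, the respiratory chain, and markers of nephron progenitors, proximal tubule, ureteric epithelium (median 0.28), stroma, endothelium, erythroid cells (Six2Cre median 0.17), macrophages, muscle and neurons (0.018). Of the wider pathway lists, genes at least 2-fold apart in one direction in both Six2Cre pairs, at least 2-fold apart in the CreER pair, or passing a fit were named, with some others as examples; 1 gene of those lists that met this rule is not reported here. Marker lists were given as counts, medians and sums. The members and lists were chosen with earlier results of these data known. Figures were drawn with matplotlib 3.10.9.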

Additional observations from a re-analysis of the deposited data

How the results depend on the processing

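No gene of the set passed under any alternative tried, and their lowest adjusted p (limma) was 0.0632, with eBayes trend and robust. Over all features the Six2Cre comparison called 0, but 458 with normexp, 219 among features well above background on all 6 arrays and 627 with trend and robust; the 3-pair fit called 0, but 36 with normexp and 12 with trend and robust. Sall1, Slc2a2, Fbp1 and Fbp2 passed with normexp and with trend and robust, with normexp differences of -1.16, -2.09, -1.10 and -1.34. With quantile normalization 14 of the 35 genes were lower in the slide 1 pair. The Six2Cre sign turned for Ldhb with quantile normalization (-0.0442), for Pfkp with normexp (-0.0166) and with the mean of its probes (-0.0844), and for Pfkfb3 with the mean of its probes (-0.103). With 1 Six2Cre array left out at a time, in a fit without the slide block, 7 to 14 of the 16 glycolytic enzymes were lower in Six2Cre knockouts (7 without control 2) and 6 to 9 of the other hypoxia response genes were higher. Those fits set arrays of different slides against each other. Over them and each Six2Cre pair alone, the Six2Cre difference changed sign for the following genes: Hk1 from -0.537 to 0.259, Gpi1 from -0.198 to 0.0453, Pfkl from -0.869 to 0.0616, Pfkm from -0.389 to 0.183, Pfkp from -0.0508 to 0.0646, Aldoa from -0.302 to 0.0625, Aldoc from -0.366 to 0.221, Tpi1 from -0.196 to 0.391, Pgk1 from -0.527 to 0.0673, Pkm from -0.538 to 0.245, Ldha from -0.336 to 0.0546, Ldhb from -0.247 to 0.274, Slc2a1 from -0.434 to 0.0506, Pfkfb3 from -0.19 to 0.235, Pfkfb4 from -0.0417 to 0.173, Bnip3 from -0.00793 to 0.741, Ankrd37 from -0.158 to 0.52, Egln1 from -0.273 to 0.0799, Egln3 from -0.403 to 0.074, Hif1a from -0.687 to 1.22, Ndrg1 from -0.0603 to 0.278, Vegfa from -0.217 to 0.173, P4ha2 from -0.0414 to 0.353. It kept its sign, over different ranges, for the other genes of the set: Hk2 from -1.05 to -0.477, Pgam1 from -0.479 to -0.0585, Eno1 from -0.691 to -0.194, Eno2 from 0.058 to 0.836, Slc2a3 from 0.107 to 0.478, Slc16a3 from -0.796 to -0.152, Pdk1 from 0.0183 to 0.86, Adm from 0.346 to 0.547, Epas1 from -0.307 to -0.267, Car9 from 0.0167 to 0.5, P4ha1 from 0.161 to 0.48, Ddit4 from 0.473 to 0.566. The causes were not tested. No paired analysis was possible by replicate number, because the titles of the groups compared share none (7 and 9 against 5 and 2, and 5 against 2), and the 3 pairs fitted here rest on the slide and line.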
